A study of Mus musculus with 6 samples.

Results

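The genes described here encode the proteins of the mitochondrial ribosome and were taken as the rows of the deposited count table whose names match Mrpl or Mrps, a number and at most 1 further letter. This rule found 78 of 55421 genes, left out 5 pseudogene rows, and used no measured value. They were compared in leukemia cells taken from the bone marrow of transplanted C57BL/6 mice, in which the donor cells had an intact Ddit4 gene (AE9a-Ddit4+/+, wild type, 3 libraries) or lacked it (AE9a-Ddit4-/-, knockout, 3 libraries). All 6 libraries came from cells that carry AML1-ETO9a (AE9a), a shortened form of a human leukemia fusion protein, brought by a retrovirus with a GFP marker into c-Kit+ stem and progenitor cells of donor mice. The labels state that GFP+ leukemia cells were passed on to irradiated recipients and that leukemia cells were kept in IMDM medium with serum. The study's methods give donors of 6 to 8 weeks of age and do not say whether the sequenced cells were sorted, so host blood cells, which have an intact Ddit4 gene, may be present. The number of transplanted mice given for each group equals its number of libraries, but neither a mouse for each library nor a separate origin of the leukemias is stated. In the study's primary transplants, fewer than 3 mice of the knockout group developed leukemia, so the knockout libraries may share a leukemia of origin. So n is a number of libraries, and p values measure the spread between them, which may be technical in part. The Ddit4 protein, made under stress, restrains mTOR complex signaling, a pathway that controls cell growth and protein synthesis.

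The mitochondrial ribosome translates the few messenger RNAs of the mitochondrial genome, which encode core subunits of the respiratory chain and of the ATP synthase. Its ribosomal RNAs are made inside the mitochondrion, whereas its proteins are encoded in the nucleus, made in the cytosol and imported. Some of these proteins have counterparts in bacterial ribosomes and others are specific to mitochondria. The large subunit holds the peptidyl transferase center and the exit tunnel, and the small subunit holds the mRNA channel and the decoding site. Acute myeloid leukemia cells are known for their reliance on mitochondrial translation.

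Messenger RNA of the mitochondrial ribosomal proteins took a smaller part of the transcriptome in AE9a-Ddit4-/- than in AE9a-Ddit4+/+ libraries. The summed level of the 78 genes was 3322, 2505 and 3172 CPM (counts per 1000000 of the TMM-scaled library total) in wild-type libraries 1, 2 and 3, and 1662, 2253 and 2308 CPM in the knockout libraries. The groups did not overlap, with wild-type library 2 and knockout library 3 lying closest to each other. Means were 3000 ± 435 CPM in the wild type and 2075 ± 358 CPM in the knockout (SD, n = 3 each), so the knockout held 69.2% of the wild-type level. An exact two-sided permutation test over 3 against 3 libraries cannot give a p below 0.1, and separation of the groups reaches that value only. In bulk RNA, fewer cells of a type and less of an RNA per cell cannot be told apart.

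**Figure D1:**
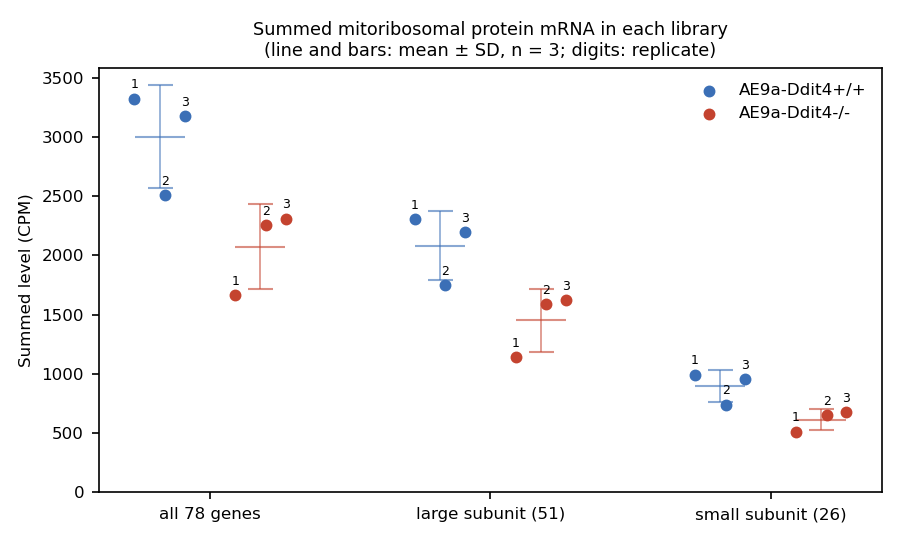
Summed level in CPM (vertical axis, from 0) of all 78 genes and of the large and small subunit genes in each library, with points for libraries, digits for replicate numbers and lines with bars for mean ± SD (n = 3). The knockout libraries (1662 to 2308 CPM over all 78 genes) lie below the wild-type libraries (2505 to 3322 CPM), and knockout library 1 is the lowest.

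Each of the 78 genes passed the filter on low counts, so none was lost, and the lowest count of any of them in a library was 128 (Mrpl53). With edgeR's quasi-likelihood test and a Benjamini-Hochberg adjusted p below 0.05, 21 genes were lower in AE9a-Ddit4-/-, 1 was higher and 56 did not pass. Of all 18375 genes tested, 10.7% were lower and 19.4% were higher, and among the 8214 genes with an average log2 CPM above 4, 17.0% were lower and 15.1% higher. In the range of average log2 CPM that the 78 genes span, 13.4% of 9383 genes were lower and 20.7% higher. The log2 fold change was below 0 for 67 of the 78 genes, against 48.6% of all genes tested and 58.8% of those above 4. Its median was -0.61, against 0.04 over all genes tested and -0.17 over those above 4. The quartiles were -0.82 and -0.34, and the median SE of a single gene was 0.27.

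For 39 of the 78 genes, the highest knockout library lay under the lowest wild-type library (22.2% of all genes tested, 30.8% of those above 4). The reverse held for 3 genes, Mrpl3, Mrpl15 and Mrpl44 (27.9% and 21.3%). Knockout library 1 was the lowest of the 6 for 65 genes. Wild-type library 2 was the lowest within its group for 65 genes. Against the wild-type mean, the median log2 difference of the 78 genes was -0.96 in knockout library 1, -0.43 in library 2 and -0.40 in library 3. The number of lower genes changed with each library left out. It came to 4 without wild-type library 1, without wild-type library 3 or without knockout library 1, to 9 without knockout library 2 or 3, and to 27 without wild-type library 2. In the fits that gave 4 and 9, between 5.61% and 7.29% of all genes tested were lower, and in the fit that gave 27, 10.7% were. The median of the 78 genes stayed below 0 in each of these fits, from -0.75 to -0.43.

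**Figure D2:**
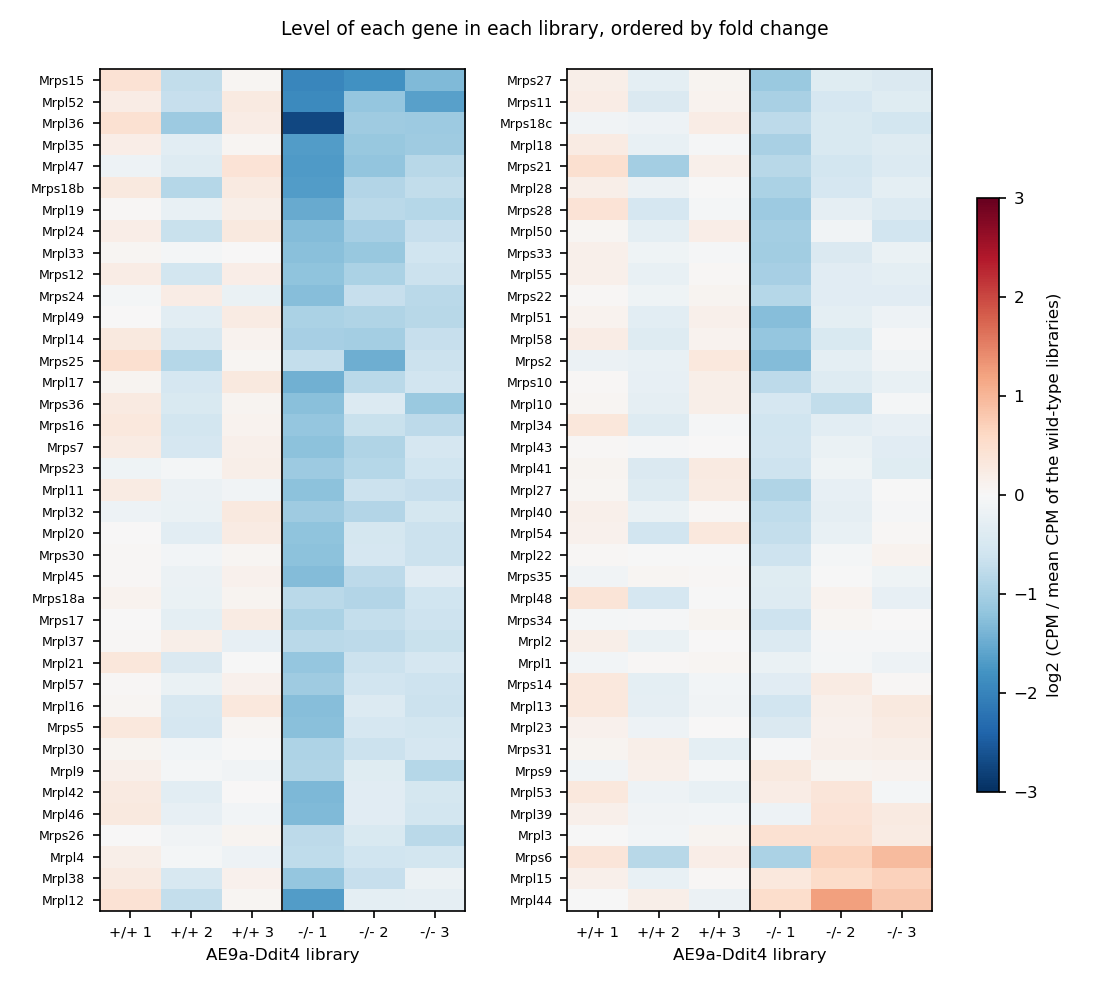
Level of each of the 78 genes in each of the 6 libraries as log2 of its CPM over the mean CPM of the wild-type libraries, ordered from the lowest to the highest fold change (left panel, then right panel). Blue marks levels under the wild-type mean; knockout library 1 is the lowest for 65 genes, and the bottom rows of the right panel hold genes such as Mrpl44 and Mrpl15 that are higher in all knockout libraries.

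Mrps15, the counterpart of a bacterial small subunit protein that binds the ribosomal RNA, had the lowest fold change. Its level was 45.6, 20 and 35.2 CPM in the wild-type libraries and 8.60, 9.56 and 13.5 CPM in the knockout libraries. The groups did not overlap, and the knockout mean was 68.6% lower (log2 fold change -1.67, SE 0.36, edgeR adjusted p = 0.0120). Mrpl52, a large subunit protein specific to mitochondria, stood at 70.3, 37.5 and 73.4 CPM in the wild type and at 16.1, 27.1 and 19.6 CPM in the knockout. It fell by 1.53 on the log2 scale (SE 0.33, edgeR adjusted p = 0.0121), and its groups did not overlap either. Mrpl35, a large subunit protein with a bacterial counterpart, had 41.5, 28.6 and 37.5 CPM in the wild type and 11.1, 16.3 and 17.2 CPM in the knockout. All knockout libraries were lower (log2 fold change -1.27, SE 0.27, edgeR adjusted p = 0.0107). Mrps15 passed in each of 14 alternative fits, and Mrpl52 and Mrpl35 in 13 of the 14. The other 18 lower genes passed in 4 to 10 of them.

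Mrpl44, a large subunit protein with a fold like that of RNase III, was the gene that rose. Its level was 24.9, 28.3 and 22.3 CPM in the wild type and 36.0, 59.5 and 44.2 CPM in the knockout. The groups did not overlap, and the knockout mean was 1.85 times the wild-type mean (log2 fold change 0.89, SE 0.25, edgeR adjusted p = 0.0305). It passed in 9 of the 14 alternative fits and did not pass without wild-type library 1 (adjusted p = 0.0852) or 3 (0.106), or without knockout library 2 (0.121) or 3 (0.0836), nor with the replicate number as a block (0.0755).

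Promoter windows (RefSeq, GRCm38.p6, 250 bases before to 50 bases after the start) are shown for selected genes. These are the 3 genes with the lowest fold changes among those that passed, and the gene that rose. Mrpl36, at -1.45, lay below Mrpl35 but did not pass, and its window is not shown. Mrps18a was added as a further lower gene with a match, and Mrps11 because its window runs head to head with that of Mrpl46. Windows were found for 69 of the 78 genes, 19 of the 21 lower ones among them. They were searched on both strands for GCGCATGCG (NRF1), CCGGAAGT (ETS factors such as GABP) and AAGATGGCG (YY1), which are bound by known activators of nuclear genes for mitochondrial proteins. Each motif was counted on its own, so a base could count toward more than 1. Capitals mark a match to any of these letters. The windows are, in order, chr4:126046678-126046977, plus strand (Mrps15), chr14:54426659-54426958, plus strand (Mrpl52), chr6:71823735-71824034, minus strand (Mrpl35), chr17:46110754-46111053, plus strand (Mrps18a), chr7:78782881-78783180, plus strand (Mrps11) and chr1:79775768-79776067, plus strand (Mrpl44). The start used for Mrpl35 lies 3185 bases inside the outermost start of the gene in GENCODE. Windows not shown include those of the lower genes Mrpl33 (ETS letters) and Mrps24 (YY1 letters), whose starts lie 17016 and 7979 bases inside. Over the 69 windows the median distance was 18 bases.
Mrps15: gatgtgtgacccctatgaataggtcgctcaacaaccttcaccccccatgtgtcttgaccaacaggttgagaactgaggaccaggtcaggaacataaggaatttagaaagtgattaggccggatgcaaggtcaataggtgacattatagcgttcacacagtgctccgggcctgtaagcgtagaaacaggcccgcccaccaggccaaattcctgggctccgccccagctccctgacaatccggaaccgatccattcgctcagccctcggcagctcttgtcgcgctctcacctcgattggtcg
Mrpl52: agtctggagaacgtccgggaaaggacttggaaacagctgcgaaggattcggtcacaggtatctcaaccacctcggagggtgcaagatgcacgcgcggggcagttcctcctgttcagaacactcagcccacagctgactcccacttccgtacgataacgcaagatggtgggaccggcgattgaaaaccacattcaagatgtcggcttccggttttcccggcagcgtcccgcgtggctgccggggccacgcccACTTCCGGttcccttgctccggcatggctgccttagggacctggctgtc
Mrpl35: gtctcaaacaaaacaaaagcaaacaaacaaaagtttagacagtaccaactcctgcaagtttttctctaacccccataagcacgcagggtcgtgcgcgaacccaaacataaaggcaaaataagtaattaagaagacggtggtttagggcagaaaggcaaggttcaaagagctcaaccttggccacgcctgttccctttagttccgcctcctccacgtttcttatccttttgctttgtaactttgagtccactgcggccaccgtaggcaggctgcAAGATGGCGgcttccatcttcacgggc
Mrps18a: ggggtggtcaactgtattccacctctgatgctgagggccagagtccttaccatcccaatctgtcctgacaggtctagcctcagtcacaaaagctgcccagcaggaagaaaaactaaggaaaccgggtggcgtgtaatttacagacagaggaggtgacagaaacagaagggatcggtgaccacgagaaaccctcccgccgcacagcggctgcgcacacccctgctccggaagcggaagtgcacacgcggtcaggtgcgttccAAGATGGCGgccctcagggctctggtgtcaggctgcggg
Mrps11: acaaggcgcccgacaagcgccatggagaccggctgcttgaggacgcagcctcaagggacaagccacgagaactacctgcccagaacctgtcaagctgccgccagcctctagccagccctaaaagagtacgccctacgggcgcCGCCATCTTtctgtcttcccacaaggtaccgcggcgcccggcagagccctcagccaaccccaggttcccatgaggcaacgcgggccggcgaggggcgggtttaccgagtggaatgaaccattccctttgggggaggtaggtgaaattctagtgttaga
Mrpl44: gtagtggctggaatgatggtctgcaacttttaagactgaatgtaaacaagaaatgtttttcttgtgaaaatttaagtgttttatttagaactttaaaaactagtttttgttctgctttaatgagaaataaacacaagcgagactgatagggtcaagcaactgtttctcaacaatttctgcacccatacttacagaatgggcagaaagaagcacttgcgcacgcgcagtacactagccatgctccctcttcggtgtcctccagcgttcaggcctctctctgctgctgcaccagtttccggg

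Mrps15 and Mrpl44, with the lowest and the highest fold change, held none of these letters. Mrpl52 held the ETS letters and Mrpl35, Mrps18a and Mrps11 the YY1 letters. The windows of Mrps11 and Mrpl46 lie on opposite strands and share 141 bases, and neither gene passed (log2 fold changes of -0.59 and -0.68). YY1 letters were present in 11.6% of the 69 windows, against 2.95% of 11600 windows of genes tested and 4.04% of 6439 windows of genes above 4. ETS letters were present in 15.9%, against 7.82% and 10.3%, and NRF1 letters in 10.1%, against 3.41% and 4.19%. At least 1 of the 3 was found in 25 of the 69 windows (36.2%, against 13.4% and 17.4%), in 9 of the 19 windows of lower genes and in 16 of the 50 others. The E-box CACGTG stood in 7.25% of the 69 windows (9.78% of all), the GC box GGGCGG in 49.3% (60.9%) and the CRE TGACGTCA in 2.90% (3.06%). These are counts of letters in a fixed window and were given no test.

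Among factors that act on such promoters, Gabpa (109.6 ± 14.9 against 115.9 ± 15.5 CPM, wild type against knockout), Yy1 (192.7 ± 22.3 against 219.0 ± 25.1 CPM) and Nrf1 (34.7 ± 2.55 against 26.4 ± 0.862 CPM) did not pass (SD, n = 3 each). Gabpb1, a partner of Gabpa, rose (25.97 ± 6.34 to 59.9 ± 20.04 CPM, edgeR adjusted p = 0.0245) and Gabpb2, the other partner, fell (125.2 ± 26.4 to 77.5 ± 11.6 CPM, adjusted p = 0.0479). Myc, an activator of ribosome and mitochondrial gene programs, had 41.6, 30.6 and 51.5 CPM in the wild type and 110.4, 170.5 and 184.2 CPM in the knockout. It rose by 1.91 on the log2 scale (SE 0.28, edgeR adjusted p = 0.00302). Of the 9 regulators tested out of 10, 2 were higher (22.2%) and 1 was lower (11.1%). These shares lie near those of all genes tested (19.4% higher and 10.7% lower).

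The 2 subunits had similar values. Of the 51 large subunit genes, 16 were lower and 1 was higher, with a median log2 fold change of -0.62, and 44 values lay below 0. Of the 26 small subunit genes, 5 were lower and none higher, with a median of -0.59, and 22 values lay below 0. The share lower was 31.4% in the large and 19.2% in the small subunit. It was 10.7% over all genes tested and 17.0% over those above 4 in average log2 CPM. The ratio of summed large to summed small subunit levels ranged from 2.24 to 2.45 over the 6 libraries, with both ends in knockout libraries. Here Mrps30 and Mrps18a were counted in the large subunit, where structures place them despite their names. Mrps36, now known as a part of the alpha-ketoglutarate dehydrogenase complex, was counted in neither subunit. It stood at 25.9, 15.7 and 22.9 CPM in the wild type and 8.97, 16.1 and 9.97 CPM in the knockout and did not pass (log2 fold change -0.88, edgeR adjusted p = 0.0819).

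**Figure D3:**
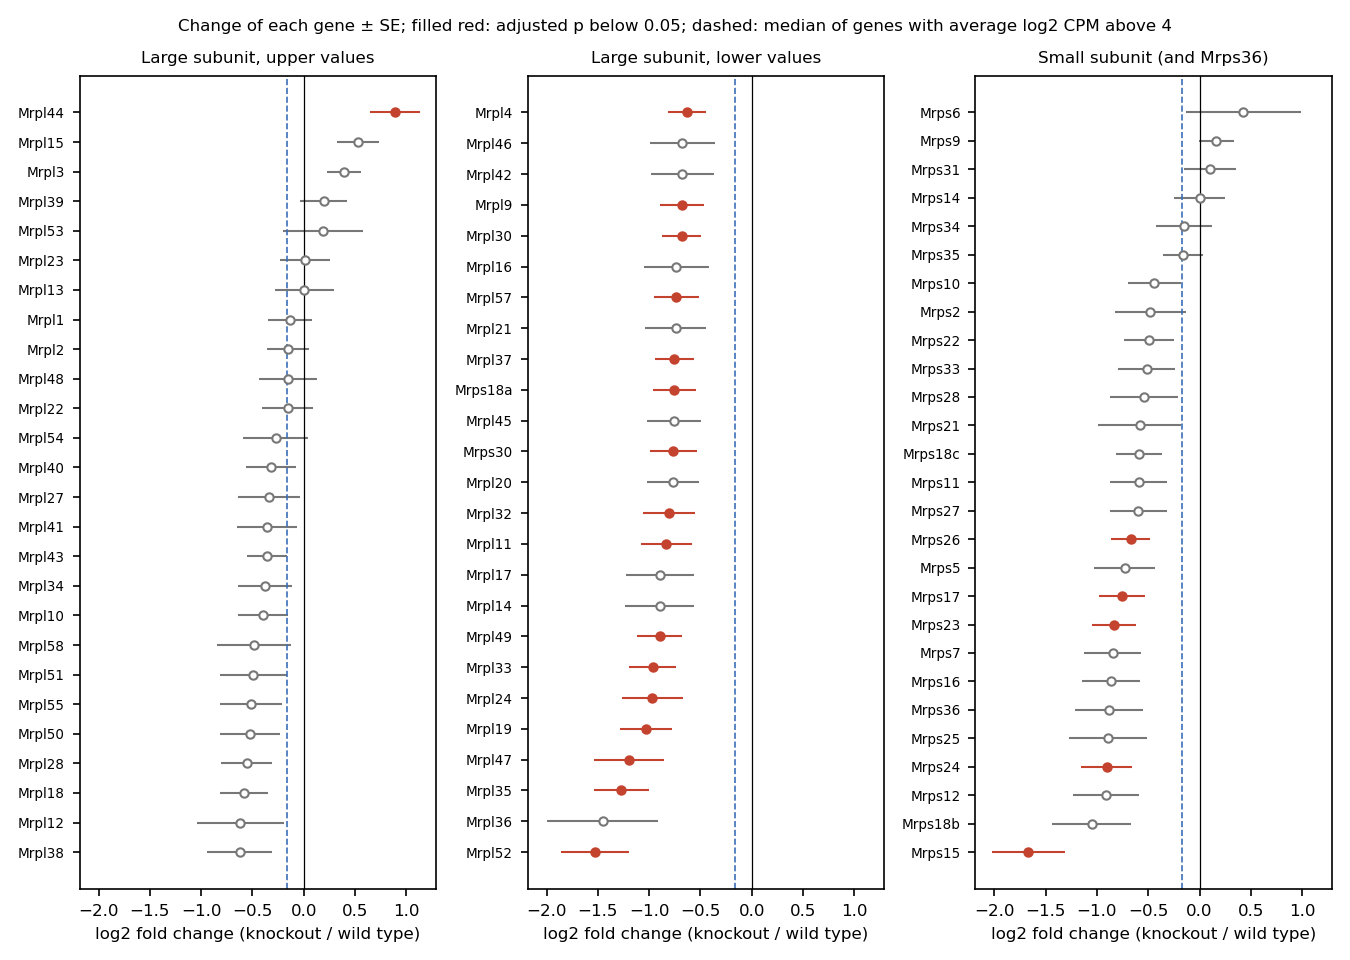
Log2 fold change of each gene, knockout over wild type (horizontal axis), with bars for its SE (3 libraries a group), for large subunit genes in 2 panels and small subunit genes and Mrps36 in the third. Filled red points passed at an adjusted p below 0.05 (21 lower, 1 higher), and the dashed line at -0.17 is the median of genes with an average log2 CPM above 4.

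Large subunit proteins with bacterial counterparts held 10 of the 21 lower genes, out of 29 (34.5%, against 10.7% of all genes tested). Mrpl33 (62.9, 58.4 and 60.8 CPM in the wild type, 25.2, 27.8 and 40.1 CPM in the knockout) fell by 0.97 on the log2 scale (SE 0.23, edgeR adjusted p = 0.0169), with groups that did not overlap. Mrpl19 (47.4, 39.6 and 52.3 against 16.2, 26.6 and 25.4 CPM) fell by 1.03 (SE 0.26, adjusted p = 0.0211). Both also held in most alternatives, 9 of 14 for Mrpl33 and 10 of 14 for Mrpl19, whose exons overlap those of Gcfc2 on the opposite strand over 36.0% of their length. Mrpl32, whose maturation by a mitochondrial protease is known to gate ribosome assembly, had 26.8, 25.6 and 36.3 CPM in the wild type and 14.1, 16.2 and 20.4 CPM in the knockout (log2 fold change -0.80, SE 0.26, adjusted p = 0.0490). Mrpl4, Mrpl9, Mrpl11, Mrpl24, Mrpl30 and Mrpl47 were also lower, by 0.63 to 1.19 on the log2 scale. Mrpl36, a small zinc-binding protein, ranged widely within each group, with 48.3, 16.6 and 40.9 CPM in the wild type and 5.30, 16.7 and 16.6 CPM in the knockout. Its fold change of -1.45 (SE 0.54, edgeR adjusted p = 0.0806) did not pass, and wild-type library 2 lay among the knockout libraries.

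Of the 20 large subunit proteins specific to mitochondria, 5 (25%) were lower and Mrpl44 was higher, with a median of -0.51. Besides Mrpl52, the lower ones were Mrpl37, Mrpl49, Mrpl57 and Mrps30. Mrpl49 had 35.9, 28.4 and 41.8 CPM in the wild type and a narrow range of 18.3, 18.9 and 19.8 CPM in the knockout (log2 fold change -0.90, SE 0.22, edgeR adjusted p = 0.0207). Mrpl37 had 60.6, 66.8 and 50.4 CPM against 33.8, 34.5 and 37.1 CPM (log2 fold change -0.75, SE 0.19, adjusted p = 0.0225). For Mrpl37, unlike most of the genes, wild-type library 2 was the highest of the 6. Mrps30 (85.2 ± 4.43 against 50.2 ± 12.4 CPM) and Mrpl57 (48.0 ± 5.71 against 28.9 ± 5.06 CPM, SD, n = 3 each) fell by 0.76 and 0.73 on the log2 scale, and in both the groups did not overlap.

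In the small subunit, Mrps15, Mrps17 and Mrps24 were the lower genes among the 16 with bacterial counterparts, and Mrps23 and Mrps26 among the 9 specific to mitochondria. These were 18.8% of the 16 and 22.2% of the 9, beside 17.0% of the genes above 4 in average log2 CPM. Mrps24, the counterpart of a protein at the mRNA entry of the bacterial ribosome, had 31.1, 37.2 and 28.1 CPM in the wild type and 13.3, 19.9 and 18.3 CPM in the knockout (log2 fold change -0.90, SE 0.25, edgeR adjusted p = 0.0295). Mrps23 had 45.5, 47.6 and 56.1 CPM against 23.3, 27.3 and 33.0 CPM (log2 fold change -0.84, SE 0.22, adjusted p = 0.0235). In both genes the lowest wild-type library lay above the highest knockout library. Mrps17 (43.9 ± 8.14 against 26.1 ± 3.06 CPM) and Mrps26 (65.6 ± 4.74 against 41.2 ± 5.96 CPM, SD, n = 3 each) fell by 0.75 and 0.67 on the log2 scale.

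The Mrps18 family, 3 paralogs that arose from 1 bacterial protein, showed values below 0 in each member. Mrps18a, the one in the large subunit, had 38.2, 30.9 and 37.5 CPM in the wild type and 20.4, 19.3 and 23.5 CPM in the knockout and fell by 0.76 on the log2 scale (SE 0.21, edgeR adjusted p = 0.0302). Mrps18b had 46.5, 21.0 and 45.9 CPM against 11.8, 20.4 and 22.6 CPM and did not pass (log2 fold change -1.05, adjusted p = 0.0768), and wild-type library 2 lay within the knockout range. Mrps18c, with 29.3, 28.1 and 36.6 CPM against 18.1, 23 and 21.4 CPM, did not pass either (log2 fold change -0.59, adjusted p = 0.0826). All knockout libraries were nonetheless lower for Mrps18c.

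By functional site, the exit tunnel genes Mrpl17, Mrpl22, Mrpl23, Mrpl24, Mrpl45 and Mrpl47 centered on a log2 fold change of -0.83 (median), and Mrpl24 and Mrpl47 were lower. Mrpl47 had 19.4, 16.5 and 28.6 CPM in the wild type and 6.58, 9.53 and 12.1 CPM in the knockout (log2 fold change -1.19, SE 0.34, edgeR adjusted p = 0.0342). Mrpl22 and Mrpl23 of the same site had values near 0 (-0.16 and 0.01). Of the stalk genes Mrpl10, Mrpl11, Mrpl12 and Mrpl53, which form the site where translation factors dock, Mrpl11 was lower (45.3, 33.9 and 35.5 against 16.2, 24.7 and 23.7 CPM, adjusted p = 0.0396). Mrpl12, a protein also reported to bind the mitochondrial RNA polymerase, had 119.7, 54.2 and 92.4 CPM in the wild type and 27.9, 72.3 and 73.2 CPM in the knockout and did not pass (log2 fold change -0.62, adjusted p = 0.311). Its groups overlapped through wild-type library 2. None of the 7 central protuberance genes (Mrpl18, Mrpl27, Mrpl38, Mrpl40, Mrpl46, Mrpl48 and Mrpl58) passed at the adjusted threshold with edgeR or with DESeq2. An unadjusted edgeR p below 0.05 was found for 1 of them, and their values ran from -0.68 to -0.16 with a median of -0.49. The shares lower were 33.3% of 6 exit tunnel, 25% of 4 stalk and 0% of 7 central protuberance genes. Over all genes tested the share was 10.7%, and 17.0% over those above 4. With so few genes these shares do not tell the sites apart, and no difference between sites was tested.

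Levels between genes were compared per kb of exon, since longer transcripts collect more counts. The 78 genes spanned 2.70 to 58.0 CPM per kb in the wild type (median 13.5) and 1.54 to 38.4 CPM per kb in the knockout (median 9.31). Mrpl12, Mrpl18, Mrpl52, Mrpl34 and Mrpl2 had the highest wild-type means, at 58.0, 57.5, 54.4, 43.3 and 41.3 CPM per kb. Of these Mrpl52 had 18.9 CPM per kb in the knockout, and the other 4 had 33.3 to 38.4 CPM per kb. Mrps10, Mrpl17 and Mrpl53 had the lowest wild-type means, at 2.70, 2.86 and 2.94 CPM per kb. Exon length was taken over all annotated transcripts, which understates the level of genes with long rarely used exons.

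Fold changes were also read by chromosome. Chromosomes 1, 15 and 16 were singled out as higher, and 4 and 5 as lower, from earlier results of these data. The division of all genes between them therefore follows from that choice and is no separate result. Of the 9 genes on chromosomes 1, 15 and 16, 7 had a log2 fold change above 0 and 1 was lower, and of the 69 elsewhere, 4 lay above 0 and 20 were lower. The 8214 genes with an average log2 CPM above 4 were divided likewise, with 66.4% of 1112 above 0 on chromosomes 1, 15 and 16 and 37.3% of 7102 elsewhere. Chromosomes 1, 15 and 16 had medians of 0.23, 0.39 and 0.25 over these genes, and chromosomes 4 and 5 of -0.32 and -0.44. Whether these chromosomes differ in copy number between the leukemias was not tested.

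Chromosome 1 held Mrpl44, Mrpl15, Mrps9, Mrps14 and Mrpl30. Mrpl15, with 35.7, 27.6 and 32.5 CPM in the wild type and 39.6, 47.0 and 51.8 CPM in the knockout, was higher in all knockout libraries and did not pass (log2 fold change 0.53, edgeR adjusted p = 0.0917). Mrps9 (0.17) and Mrps14 (0.00) did not pass, whereas Mrpl30 was lower, with 81.6, 72.6 and 77.0 CPM against 40.5, 49.3 and 54.2 CPM (log2 fold change -0.68, adjusted p = 0.0296). On chromosomes 15 and 16, Mrpl13 (0.01), Mrpl39 (0.19), Mrpl40 (-0.32) and Mrps6 (0.43) did not pass. Mrps6 varied most among them, with 6.85, 2.97 and 6.16 CPM in the wild type and 2.75, 8.51 and 10.2 CPM in the knockout.

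Chromosome 4 held Mrps15, Mrpl37, Mrpl20 (-0.77) and Mrpl50 (-0.53), and chromosome 5 held Mrpl33, Mrps17, Mrps18c and Mrpl1 (-0.13), of which Mrpl20, Mrpl50, Mrps18c and Mrpl1 did not pass. Over the 61 genes outside chromosomes 1, 4, 5, 15 and 16, the median was -0.63, with 16 lower (26.2%, against 10.7% of all genes tested) and none higher. That none was higher was fixed by the choice, since Mrpl44 lies on chromosome 1. Mrpl3, near the peptidyl transferase center, was the gene outside chromosomes 1, 15 and 16 with the highest value. It stood at 70.1, 65.8 and 74.4 CPM in the wild type and at 96.8, 95.9 and 83.1 CPM in the knockout, above the wild type in each library, and did not pass (log2 fold change 0.39, edgeR adjusted p = 0.119).

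**Figure D4:**
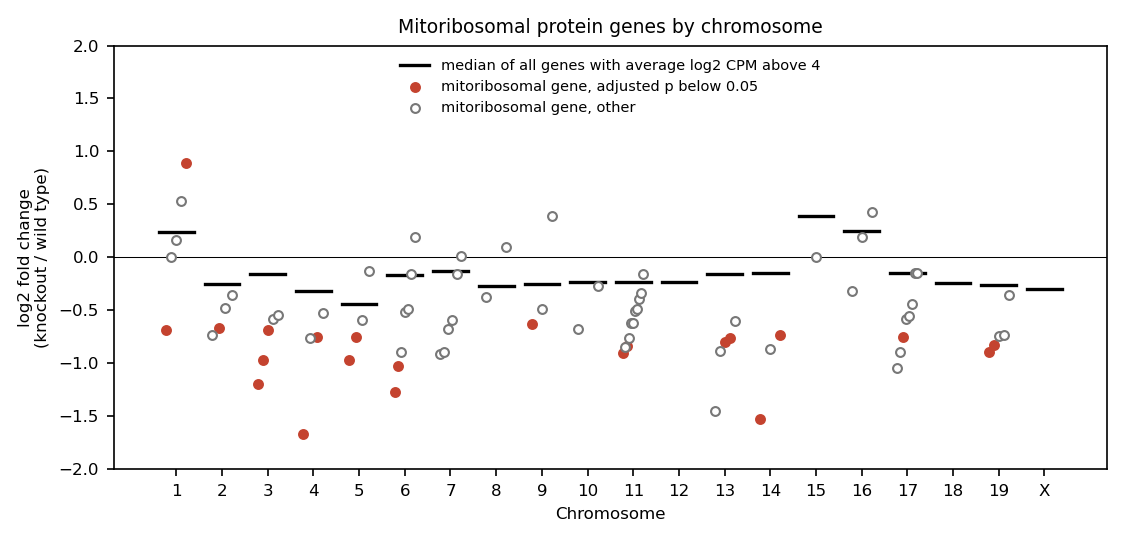
Log2 fold change of the 78 genes (points, filled red where the adjusted p was below 0.05) by chromosome, with bars for the median on that chromosome over genes above 4 in average log2 CPM. The bars lie above 0 on chromosomes 1, 15 and 16 (0.23 to 0.39), where 7 of the 9 genes also lie above 0.

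Mitochondrial ribosomal proteins with other names and assembly factors, the partners of these proteins, had medians below 0, and none of their genes was higher. Of 5 mitochondrial ribosomal proteins with other names, Dap3 and Aurkaip1, both of the small subunit, were lower and the median log2 fold change was -0.80. Dap3 had 116.4, 80.5 and 101.9 CPM in the wild type and 42.2, 52.4 and 48.4 CPM in the knockout (log2 fold change -1.06, SE 0.21, edgeR adjusted p = 0.00800). Aurkaip1 had 48.0, 48.1 and 42.7 CPM against 23.3, 21.0 and 30.9 CPM (log2 fold change -0.88, adjusted p = 0.0203). Of 24 assembly factors, Rcc1l, Mtg2, Rpusd4 and Eral1 were lower and none was higher (median -0.50). Rcc1l, a factor for both subunits, had 73.3, 45.7 and 56.8 CPM in the wild type and 17.3, 25.6 and 22.4 CPM in the knockout (log2 fold change -1.43, SE 0.26, adjusted p = 0.00632). Eral1, which chaperones the small subunit RNA, had 44.0, 47.4 and 44.8 CPM against 20.9, 24.9 and 26.5 CPM (log2 fold change -0.91, adjusted p = 0.0113). In each of these genes the groups did not overlap.

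The next lists hold factors that work with the assembled ribosome. Beside the 10.7% of all genes tested that were lower, 6.7% of the translation factors, 5.9% of the tRNA synthetases and 16.7% of the assembly factors were lower, which rests on 1, 1 and 4 genes. Of 15 translation factors, the initiation factor gene Mtif3 was lower (26.9 ± 1.07 against 15.03 ± 2.06 CPM, edgeR adjusted p = 0.0258), and the elongation factor gene Tufm did not pass (50.7 ± 18.2 against 31.0 ± 6.84 CPM). Of 17 tRNA synthetases for mitochondria, Lars2 was lower (49.8 ± 8.10 against 27.9 ± 4.94 CPM, adjusted p = 0.0286). The medians of these lists were -0.57 and -0.52. Of 11 genes for copying and transcribing mitochondrial DNA, Polg (86.7 ± 3.74 against 50.4 ± 5.45 CPM, adjusted p = 0.0133) and Mterf1a (6.41 ± 1.09 against 2.79 ± 0.497 CPM, adjusted p = 0.0383) were lower (SD, n = 3 each). Tfam (65.2 ± 13.7 against 46.0 ± 9.47 CPM) and Polrmt (27.1 ± 0.143 against 23.2 ± 5.96 CPM) did not pass.

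RNA made inside the mitochondrion differed in the other direction. Of the 13 messenger RNAs of the mitochondrial genome, 11 were higher in the knockout and none lower, with a median log2 fold change of 1.19. mt-Nd1 had 5378, 7432 and 5234 CPM in the wild type and 13353, 22632 and 12625 CPM in the knockout (log2 fold change 1.43, SE 0.29, edgeR adjusted p = 0.00935). The ribosomal RNA genes mt-Rnr1 and mt-Rnr2, which encode the RNA of the small and the large subunit, were both higher. mt-Rnr1 had 419.2, 582.9 and 532.9 CPM against 2249, 1980 and 1164 CPM (log2 fold change 1.81, SE 0.28, adjusted p = 0.00368). mt-Rnr2 had 754.7, 1264 and 695.4 CPM against 4509, 4667 and 1871 CPM (log2 fold change 2.03, SE 0.40, adjusted p = 0.00919). For ribosomal RNA the labels and the methods name different ways of selecting transcripts, so these values depend on a step that is not resolved here. Mitochondrially encoded genes took 5.03% to 7.90% of all counts in the wild type and 11.3% to 16.4% in the knockout. With these genes left out of the scaling, the 78 genes had a median of -0.59, and 16 were lower. Of all genes tested in that fit, 10.1% were lower.

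Mitochondrial ribosomal protein genes were set beside the lists closest to them. The share of lower genes was 26.9% for the 78 genes and 41.0% for cytosolic ribosomal proteins. It was 14.6% for nuclear respiratory chain subunits and 14.3% for other mitochondrial content. Over all genes tested it was 10.7%, and over those above 4 in average log2 CPM 17.0%. Of 83 cytosolic ribosomal protein genes tested out of 85, 34 were lower and 1 was higher, with a median log2 fold change of -0.57. Rplp0, of the cytosolic stalk, had 5792, 5042 and 5800 CPM in the wild type and 2234, 2456 and 2354 CPM in the knockout (log2 fold change -1.24, edgeR adjusted p = 0.00206), and the higher gene was the low-level muscle form Rpl3l (0.347 ± 0.239 to 1.99 ± 0.644 CPM, SD, n = 3 each, adjusted p = 0.0220). Of 82 nuclear genes for respiratory chain subunits tested out of 86, 12 were lower and 2 higher, with a median of -0.41. Cox6a1 had 408.2, 243.8 and 349.1 CPM against 57.5, 105.7 and 108.3 CPM (log2 fold change -1.88, adjusted p = 0.00459). The higher genes were Cox4i2 and Cox6b2, forms of cytochrome oxidase subunits with restricted tissue use. Of 14 genes for other mitochondrial content, Cs, the citrate synthase gene, fell from 327.3 ± 56.2 to 90.1 ± 16.01 CPM (adjusted p = 0.00122), and Tomm20, an import receptor gene, from 305.9 ± 4.98 to 190.2 ± 30.5 CPM (adjusted p = 0.0250). All of these lists come from the same 6 libraries and no test of a difference between lists was made.

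**Figure D5:**
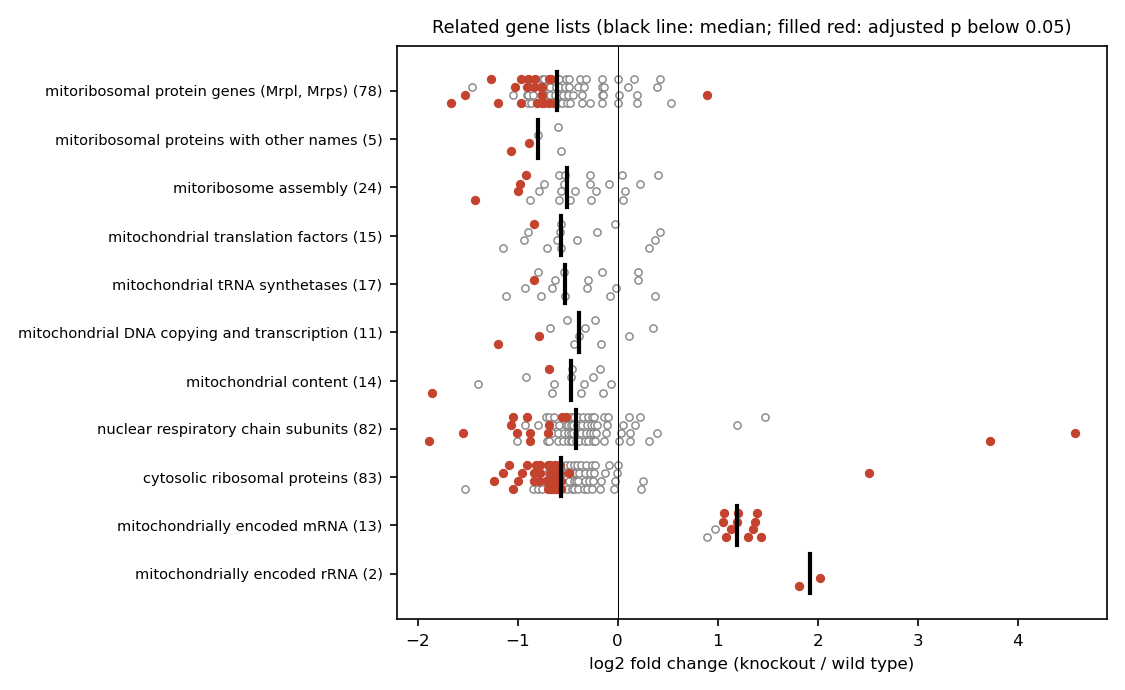
Log2 fold change of each gene (points, filled red where the adjusted p was below 0.05), knockout over wild type, for the 78 mitochondrial ribosomal protein genes and 10 related lists, with the number of genes tested in brackets and a black line at the median. The medians of lists of nuclear genes lie between -0.80 and -0.39, and those of the mitochondrially encoded messenger and ribosomal RNA at 1.19 and 1.92.

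Other properties of the libraries moved with genotype. Ddit4 itself had 227.5, 161.4 and 341.4 CPM in the wild type and 84.9, 77.6 and 85.8 CPM in the knockout (log2 fold change -1.56, SE 0.28, edgeR adjusted p = 0.00635). Which part of the gene the allele lacks was not given in the sources used here. By western blot, the study reports that DDIT4 protein was absent from AE9a-Ddit4-/- leukemia cells, so remaining RNA reads do not speak for remaining protein. Kit, a marker of the progenitors that were transduced, had 14.6 to 31.6 CPM in the wild type and 303.8 to 508.4 CPM in the knockout, and Cd34 had 2.26 to 9.82 and 492.8 to 557.9 CPM. Of 16 erythroid markers, 12 were lower in the knockout and none was at 0 in all libraries of a group, and their summed level was 7928 to 16660 CPM in the wild type and 671.4 to 1204 CPM in the knockout. Summed neutrophil markers (17) ran from 7955 to 13223 and from 2150 to 5882 CPM, and monocyte markers (10) from 262.3 to 476.1 and from 119.6 to 493.8 CPM. Summed platelet and megakaryocyte markers (12, of which 11 were tested, 8 higher and 1 lower) ran from 142.8 to 226.4 and from 2199 to 3041 CPM, with none at 0 in all libraries of a group. Markers of B cells (10, Ms4a1 at 0 in the wild type), T and NK cells (12, Klrb1c, Ncr1 and Trac at 0 in the wild type) and stroma and endothelium (12, Emcn at 0 in the wild type) summed to at most 17.97 CPM in the wild type and to 29.2 to 310.0 CPM in the knockout. Of those tested, 8 of 9, 11 of 11 and 6 of 11 were higher, and none was lower. The sex of the cells also differed, since Xist had 565.2 to 1032 CPM in the wild type and 20.3 to 128.7 CPM in the knockout, and the Y-linked gene Ddx3y had at most 0.0773 CPM in the wild type and at least 88.2 CPM in the knockout. Genotype and sex cannot be told apart here.

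Genes of the cell cycle followed the same libraries. The summed level of 15 S phase genes was 4881, 2320 and 3977 CPM in the wild type and 964.6, 2275 and 2165 CPM in the knockout, with knockout library 1 lowest and wild-type library 2 lowest of its group, as for the mitochondrial ribosomal protein genes. The summed level of 15 G2/M phase genes was 3273, 2519 and 2708 CPM in the wild type and 693.0, 1173 and 1393 CPM in the knockout. The part of cell type composition, cell cycle or sex in the lower levels of mitochondrial ribosomal protein genes was not tested.

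Some of the genes share exon sequence with a neighbor, and whether the counting used strand was not given in the sources used here. Exons of 33 of the 78 genes overlapped those of another gene, for 7 of them over more than 25% of their length. These 7 were Mrpl19, Mrpl24, Mrpl43, Mrpl53, Mrps18b, Mrps25 and Mrps34. Mrpl53 shares 88% of its exon bases with Gm42688 on the same strand, and Mrps34 shares 63.4% with Mapk8ip3 on the opposite strand and 37.0% with Nme3 on the same strand, so their values are uncertain. Over the 45 genes without such overlap, 12 were lower, none was higher and the median was -0.58, beside 10.7% lower over all genes tested. The 5 pseudogene rows, which resemble Mrpl23, Mrpl48 and Mrps36, held at most 135 counts in a library.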

How the data were processed

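RNA was sequenced by the authors in 6 libraries (2 groups of 3) as paired 150-bp reads. The authors deposited 1 table of whole-number read counts per gene, not normalized. Per the submitters' processing notes the builds are GRCm38 and mm10, and the aligner, counting tool, annotation and use of strand are not given in the sources used here. The labels name an mRNA kit, and the methods a directional kit for rRNA-depleted RNA. Library totals were 62141558 to 72717681 counts. Low values favored multiples of 4 (by a factor of 1.40 to 1.62 over neighboring even values), so counts may not be separate fragments, and all 6 columns were used.

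Groups and replicate numbers came from the sample titles. Counts were tested in R 4.3.3 with edgeR 4.0.16 (filterByExpr, TMM, glmQLFit and glmQLFTest with robust estimation, genotype as the only term), with Benjamini-Hochberg adjustment over the 18375 genes left. SE is the absolute log2 fold change over the square root of F. The script was tested on simulated data. CPM used TMM-scaled totals. Alternatives were DESeq2 1.42.0, other scalings and filters, counts divided by 4, a replicate block and leaving out each library. Of the identifiers, 55240 matched GENCODE M21 (GRCm38), used for positions and exon lengths. The members and lists were chosen with earlier results of these data known. Genes named in the text are those past the threshold, those with the 5 highest and 5 lowest fold changes, the 5 highest and 3 lowest levels per kb, members of the Mrps18 family and of the stalk, exit tunnel and central protuberance, and those on chromosomes 1, 4, 5, 15 and 16. In related lists they are those past the threshold, or examples of these where more than 4 passed. Mrpl43, Mrps11, Mrps25, Mrps31, Mrps34, Mrps36, Yy1, Nrf1, Gabpa, Kit, Cd34, Xist and Ddx3y were named after their values were seen. A gene of the marker lists is not reported here and was left out of its list.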

Additional observations from a re-analysis of the deposited data

How the results depend on the processing

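The median log2 fold change of the 78 genes kept its direction under all alternatives run, from -0.75 to -0.43 when a library was left out and from -0.67 to -0.55 under other tools, scalings and filters, whereas the number of genes past the threshold did not hold. Of the 78 genes, 21 were lower in the main fit, 12 when at least 10 counts were required in every library, and 0 at an adjusted p below 0.01. DESeq2 called 31 of the 78 lower, and 36 were lower at an unadjusted edgeR p below 0.05. These last 2 settings also called more of all genes lower. Of 18375 genes tested, 1975 were lower in the main fit, 2749 with DESeq2 and 3197 at the unadjusted p. With at least 10 counts in every library, 1574 of 14269 were lower. Leaving out 1 library gave 4 to 27 lower and 0 to 1 higher genes. Of all genes, 3840 to 6021 passed in either direction in place of 5535, and 1089 to 2078 were lower in place of 1975. At an adjusted p below 0.01, 2676 of all genes in either direction and 0 higher members passed. Without chromosomes 1, 4, 5, 15 and 16 none of the members was higher (0), which was fixed in advance because Mrpl44 lies on chromosome 1. The replicate numbers do not pair the libraries: deviations of same-numbered libraries correlated at -0.17, -0.19 and -0.05. With the number as a block, 2964 of all genes, 1 lower and 0 higher members passed. Of all genes tested with the block, 787 (4.28%) were lower. The cause of these changes was not tested. Values near 0 changed sign, none of them past the threshold. With library totals only, Mrpl13, Mrpl23 and Mrps14 were at -0.053, -0.051 and -0.062. With no low-count filter they were at -0.026, -0.020 and -0.031, and with the block Mrpl13 and Mrpl23 were at -0.013 and -0.0090. With 1 library left out, Mrpl13 ranged from -0.20 to 0.23, Mrpl23 from -0.15 to 0.20, Mrps14 from -0.18 to 0.18, Mrps31 from -0.030 to 0.19, Mrpl22 from -0.35 to 0.034, Mrps34 from -0.32 to 0.038 and Mrpl48 from -0.36 to 0.076. With 3 libraries a group and unknown repeated counting, small differences are not resolved.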
